A study of Mus musculus with 35 samples.

Results

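The comparison set p50 binding in macrophages exposed to lipopolysaccharide (LPS) for 60 min against p50 binding in unstimulated macrophages. Its members were the lists whose titles end in P50, which were 7 of the 35 region lists of the series, 4 from LPS and 3 from unstimulated cells. Each list is the set of genomic regions that the authors called in 1 chromatin immunoprecipitation sequencing (ChIP-seq) library, on mouse build mm9. The 7 lists held 5298 of the 250088 listed regions of the series, and 5115 of these were at most 10 kb wide. Regions up to 10 kb were joined across the 7 lists wherever they overlapped by at least 1 bp. This gave 2478 joined regions, and a list was said to hold a joined region when any of its own regions overlapped it.

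The LPS group (letters A, B, C and D) and the unstimulated group (letters A, C and D) were both bone marrow-derived macrophages grown from wild type female C57BL/6 mice of 8 to 12 weeks. These are macrophages differentiated in culture from bone marrow cells, and the labelled treatment that separates the groups is 60 min of LPS. The cells were fixed with formaldehyde and sonicated, p50 was precipitated with an eBioscience antibody, and single-end reads of 36 cycles were taken on an Illumina Genome Analyzer. Nothing in the labels says that the letters come from separate cultures or animals, so the p-values rest on the spread among libraries, and that spread may be technical. The dates that open the titles were shared by LPS A, LPS C, unstimulated A and unstimulated C, and a second date by LPS D and unstimulated D. LPS B had a date of its own. What these dates record is not stated.

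The protein p50 is a DNA-binding subunit of NF-κB and is cut from the precursor p105, the product of Nfkb1. It binds κB sites as a homodimer or paired with another family member, most often p65 (RelA), and unlike p65 it has no transactivation domain of its own. In resting macrophages p50 homodimers are known to occupy κB sites. LPS acts through Toll-like receptor 4 and frees dimers that contain p65 to enter the nucleus. The other targets of the series were p65; ATF3, a transcription factor that is induced by LPS and restrains inflammatory genes; acetylated histone H4 (H4ac), a mark of open and active chromatin; RNA polymerase II (Pol II); and H3K27me3, the Polycomb mark of silenced chromatin.

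The library LPS D stood apart from LPS A, B and C in the number, the scores and the placement of its regions, and the main comparisons between the groups are given with and without it. The depth of the libraries is not given in the sources used here, so a region missing from a list may have been unbound or may have been missed. The score that accompanies each region is the authors' own and has no stated unit. Its highest value was 6.72, 6.33, 6.49 and 4.92 in LPS A, B, C and D, against 6.72, 6.25 and 4.32 in unstimulated A, C and D, so both lists of letter D lacked the highest scores. Scores were therefore used only to order regions within a list.

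More p50 regions were listed in 3 of the 4 LPS libraries than in any unstimulated library. LPS A, B, C and D listed 1292, 1096, 1229 and 317 regions up to 10 kb, against 402, 437 and 342 in unstimulated A, C and D. LPS D had the fewest regions of the 7 lists, so the groups overlapped. The means were 984 ± 452 (SD, n = 4) with LPS and 394 ± 48.1 (SD, n = 3) without, a ratio of 2.50. This ratio did not pass the two-sided exact permutation test (p = 0.229, against 0.0571 as the smallest p of this test with 4 and 3 lists). Within the date shared by letters A and C the means were 1260 and 420, and within the date of letter D the LPS list was 25 regions shorter than the unstimulated one. Without LPS D the ratio was 3.06, with an exact permutation p of 0.1, which is the smallest that 3 lists against 3 allow.

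The regions themselves were narrow in every library. The median width was 160, 150, 150 and 150 bp in LPS A, B, C and D and 150 bp in each unstimulated list, and the difference of the group means was 2.5 bp (two-sided exact permutation p = 1), and 3.33 bp without LPS D. The genome covered was 0.459, 0.357, 0.439 and 0.0987 Mb in LPS A, B, C and D, against 0.151, 0.164 and 0.101 Mb in unstimulated A, C and D. The longer LPS lists thus held more regions of about the same width.

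**Figure D1:**
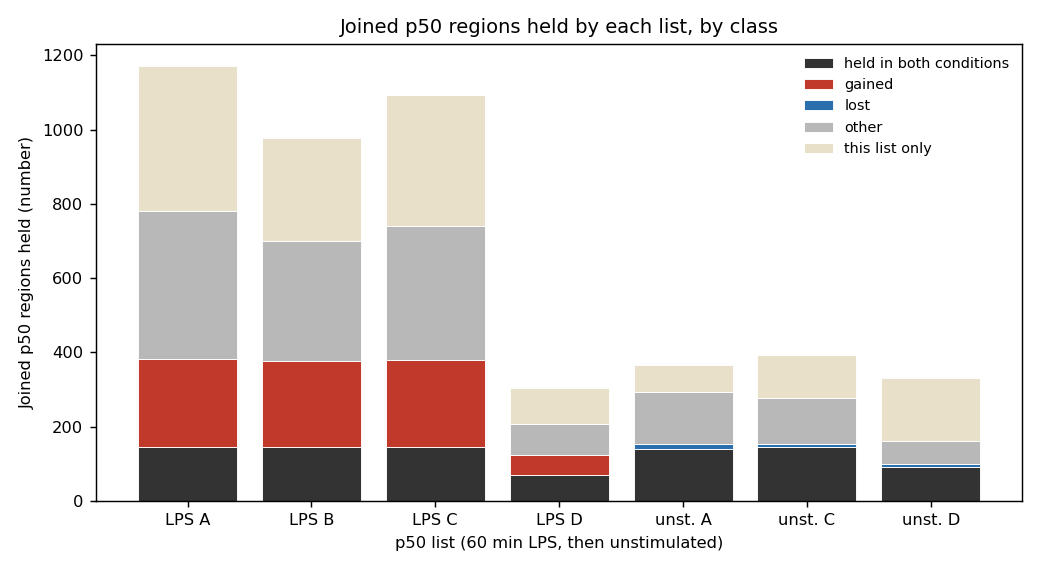
Number of joined p50 regions (y axis) held by each list (x axis), with the 4 LPS lists left of the 3 unstimulated lists; colours split the regions into held in both conditions, gained, lost, held by that list only, and other. LPS A, B and C held 238, 231 and 234 gained regions and LPS D held 53, while regions held in both conditions numbered 145, 146, 145 and 70 in the LPS lists and 139, 144 and 91 in the unstimulated ones.

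A region counted as gained if it was in at least 3 of the 4 LPS lists but in none from unstimulated cells, and as lost if it was in at least 2 of the 3 unstimulated lists but in none from LPS cells. Over all 2478 joined regions 9.60% were gained (238 regions), 0.646% were lost (16) and 5.97% were held in both conditions (148, with at least 3 LPS lists and a minimum of 2 unstimulated ones). Of the gained regions 42 were in all 4 LPS lists, 1.69% of all joined regions, and no region was held by all 3 unstimulated lists and no LPS list. Another 44 regions were held by all 7 lists. Most regions were found in a single library, with 1119 in 1 LPS list only (45.2%) and 362 in 1 unstimulated list only (14.6%).

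The gained class came mainly from LPS A, B and C. Of its 238 regions LPS A held 238, LPS B 231, LPS C 234 and LPS D 53, and 185 were in A, B and C alone. The count of gained regions reached 560 of 2383 joined regions without LPS D and 373 of 2208 without LPS B. More than 50% of the remaining lists of a group were required. The count lay between 241 (of 2309) and 341 (of 2131) without any other single list. Each of the 16 lost regions was in exactly 2 unstimulated lists. Lost regions numbered 25 of 2208 without LPS B. They numbered 2 of 2413, 6 of 2363 and 8 of 2309 without unstimulated A, C and D, where the rule then asked for both remaining lists. When each list was cut to as many top-scored regions as LPS D holds (317), 68 of 1012 joined regions were gained and 29 lost. In the full lists these were 238 and 16 of 2478. Both the counts and the total thus changed when the lists were made equal in length.

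No single region passed a test of its own, and after adjustment none could. Fisher's exact test on held or not held, over 2478 regions with Benjamini-Hochberg adjustment, gave a smallest adjusted p of 1 and 0 calls. At an unadjusted p under 0.05 it gave 42 regions held more often with LPS and 0 held less often (smallest exact p = 0.0286). These were the gained regions of all 4 LPS lists, the only pattern that 4 lists against 3 can bring under that threshold in this direction. An adjusted call over 2478 regions needs far more regions at this smallest p than LPS D (305 joined regions) and unstimulated D (331) hold together. The 0 calls therefore say nothing about the regions.

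**Figure D2:**
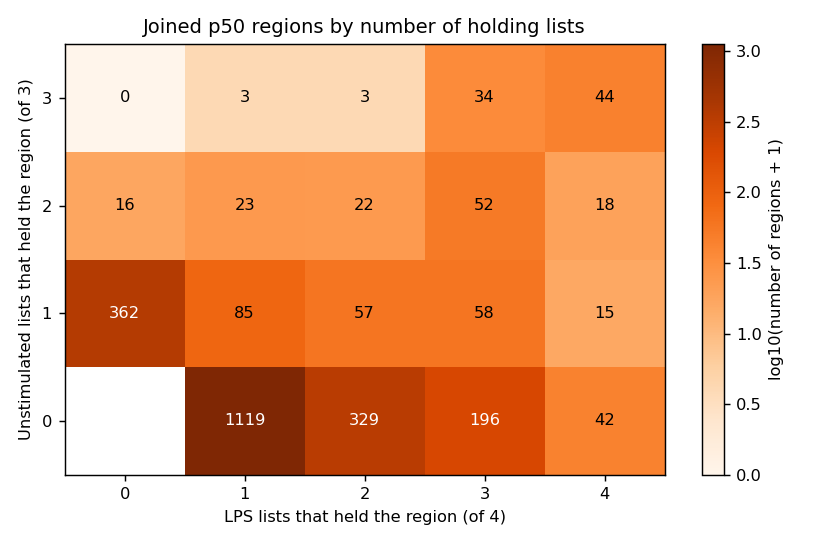
Number of joined p50 regions (printed in each cell; colour on a log10 scale) by the number of LPS lists (x axis, of 4) and of unstimulated lists (y axis, of 3) that held them. The bottom row, regions of LPS lists only, holds 1119, 329, 196 and 42 regions for 1, 2, 3 and 4 lists, while the left column, regions of unstimulated lists only, holds 362, 16 and 0.

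Lists of the same condition were on average more alike than lists of different conditions, by an amount that did not pass the test. Likeness was measured as the Jaccard index, the base pairs that both lists cover over those that either covers. It averaged 0.128 (range 0.0413 to 0.222) over the 6 pairs of LPS lists, 0.120 over the 3 pairs of unstimulated lists and 0.0840 over pairs of different conditions. The mean of same-condition pairs exceeded that of different-condition pairs by 0.0413 (one-sided exact permutation p = 0.114), and by 0.0827 without LPS D (exact permutation p = 0.1). The excess was 0.0195 without LPS C, 0.0253 without LPS A and 0.000519 with regions of every width (exact permutation p = 0.4, 0.4 and 0.486). LPS A and LPS C were the most similar pair at 0.222, followed by unstimulated A and unstimulated C at 0.209, and both pairs share a title date.

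By the Jaccard index LPS D was closer to the unstimulated library of its own letter and date than to any LPS library. Its Jaccard index was 0.143 with unstimulated D, against 0.0413, 0.0544 and 0.0600 with LPS A, B and C. By regions the order was different, and both measures depend on the length of the lists. LPS A, B and C covered 0.459, 0.357 and 0.439 Mb, against 0.0987 Mb in LPS D and 0.101 Mb in unstimulated D. A long list limits the Jaccard index it can reach with a short one, and it can share more regions. LPS D shared 145, 138 and 142 of its joined regions with LPS A, B and C (47.5%, 45.2% and 46.6% of LPS D, and 12.4%, 14.1% and 13.0% of the other list). It shared 96 with unstimulated D (31.5% of LPS D and 29.0% of unstimulated D). LPS D and unstimulated D alone held 27 regions.

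**Figure D3:**
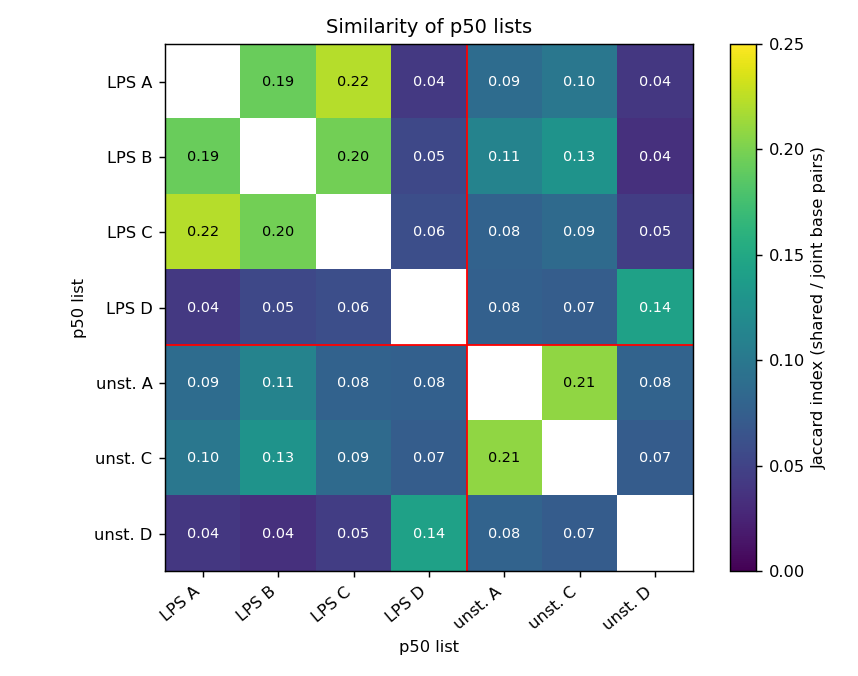
Jaccard index over base pairs (colour and printed value) for each pair of the 7 p50 lists, LPS lists above and left of unstimulated lists, with red lines between the conditions. LPS A, B and C form a block at 0.192 to 0.222, unstimulated A and C stand at 0.209, and LPS D reaches its highest value, 0.143, with unstimulated D.

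Much of the resting set persisted under LPS. LPS A held 232 regions of unstimulated A (63.2% of unstimulated A and 19.8% of LPS A), and LPS C held 207 of unstimulated C (52.7% and 18.9%). LPS D held 29.0% of unstimulated D. The best-scored 10% of each list shows where these regions stood. Of the joined regions in the top 10% of unstimulated A, C and D, 38 of 39, 42 of 43 and 29 of 34 were held in both conditions. In the top 10% of LPS A, B, C and D the regions held in both conditions were 74 of 128, 59 of 109, 75 of 122 and 12 of 29, and the gained regions 33, 31, 28 and 3. The strongest p50 regions of resting cells were thus held with LPS too. Gained regions made up 25.8%, 28.4%, 23.0% and 10.3% of the top of the LPS lists. Over the whole of LPS A, B, C and D they were 238 of 1172, 231 of 977, 234 of 1094 and 53 of 305 joined regions. Their share at the top was thus a little above that of the whole list in LPS A, B and C and below it in LPS D. Only 1 lost region stood in the top 10% of any list, in unstimulated D.

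Rank was expressed as the place of a region in its list, by score, divided by the length of that list. Regions held by all 7 lists had a median relative rank of 3.64%, 5.02%, 5.21% and 27.0% in LPS A, B, C and D and 7.59%, 7.32% and 13.4% in unstimulated A, C and D. Gained regions stood lower, at medians of 28.1%, 29.2%, 28.8% and 45.4% in LPS A, B, C and D. Lost regions were weak in the lists that held them, with medians of 73.9%, 75.2% and 68.6% in unstimulated A, C and D. Regions of a single LPS list had medians between 66.1% and 73.2%, and regions of a single unstimulated list between 62.9% and 79.1%. Lists of different length give no measure of change in rank, so these values describe each list alone.

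Width followed the same order as persistence. The median width was 2940 bp for the 44 regions of all 7 lists, 1450 bp for the 148 held in both conditions, 280 bp for gained regions, 235 bp for lost regions and 140 bp for regions of a single list of either condition, against 170 bp over all joined regions. Joining widens a region with each list that holds it, so width and the number of holding lists are linked by construction. Of the gained regions 20.6% were wider than 1 kb, against 58.8% of those held in both conditions.

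The 10 best-ranked regions held by all 7 lists were named by their mean relative rank, and coordinates are 1-based on mm9. The first lies on chromosome 8 at 114244551 to 114250430 and spans 5880 bp. It ranked 3, 2, 3 and 5 in LPS A, B, C and D, against 1, 5 and 8 in unstimulated A, C and D, and was near the top of every library. It touched both H4ac lists of 60 min, neither unstimulated H4ac list and no Pol II list, and 4 of the 5 H3K27me3 lists. The second, on chromosome 5 at 31393611 to 31398120, ranked 5, 4, 1 and 26 with LPS and 12, 2 and 2 in unstimulated cells and lay in all 5 H3K27me3 lists. The third, on chromosome 7 at 134622151 to 134624210, ranked 13, 7, 2 and 2 with LPS and 6, 4 and 36 in unstimulated cells. It lay in all 7 Pol II lists and 6 of the 8 H4ac lists and in no H3K27me3 list.

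The next regions in this order lay in varied settings. The region on chromosome 11 at 87919051 to 87921240 ranked 10, 5, 20 and 10 with LPS and 2, 7 and 41 in unstimulated cells, and touched the 2 unstimulated H4ac lists and no other list. The fifth, on chromosome 8 at 73383951 to 73389950, and the sixth, on chromosome 5 at 115637791 to 115638000, were each in all 5 H3K27me3 lists and in no Pol II list. The seventh, on chromosome 7 at 25903291 to 25905890, held the first place in LPS B and the second in LPS A and ranked 7 and 90 in LPS C and D, against 13, 22 and 12 in unstimulated A, C and D. It was touched by 4 of the 5 p65 lists, 5 H4ac and 4 Pol II lists. The last 3 lie on chromosome 7 at 31893061 to 31896330, on chromosome 14 at 61349921 to 61356180 and on chromosome 12 at 118718441 to 118719840, and the last was in all 8 H4ac lists. Of the 10, 6 touched an H3K27me3 list and 4 touched at least 4 of the 5, and 4 touched a Pol II list.

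**Figure D4:**
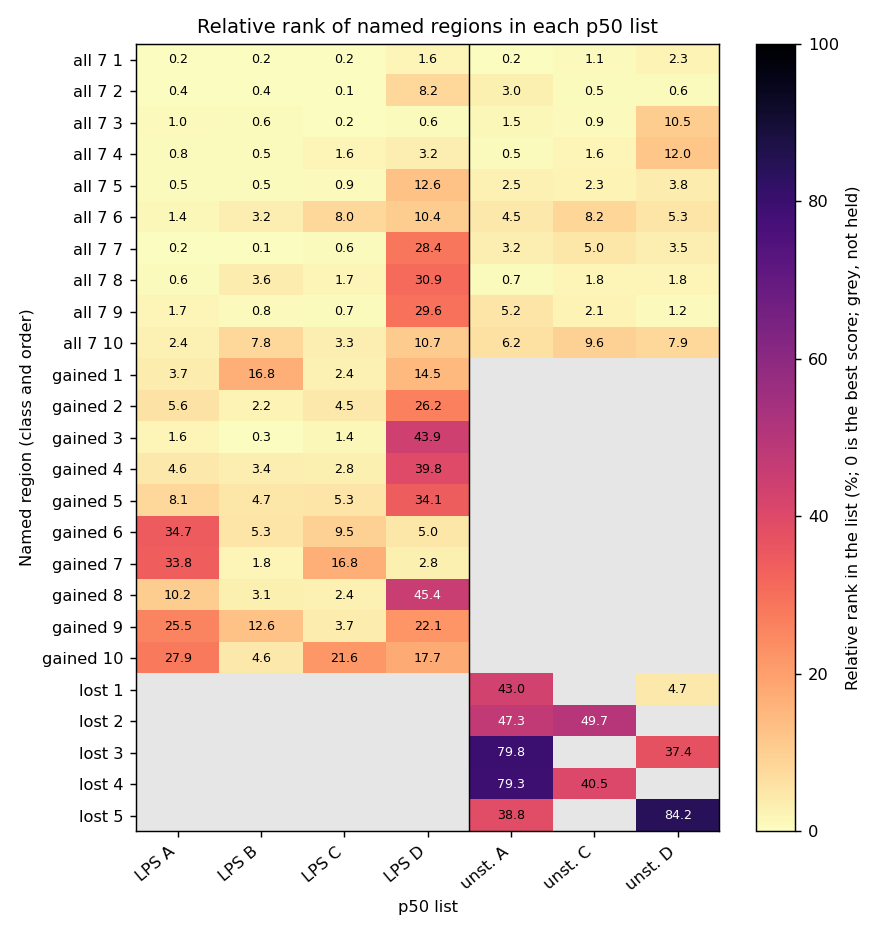
Relative rank by score (%, colour and printed value; 0 is the best score of a list; grey, not held) of the 25 named regions (y axis, by class and order) in the 7 p50 lists (x axis, LPS left of unstimulated). Regions of all 7 lists sit near the top of LPS A, B and C, with up to 30.9% in LPS D, while the gained regions spread from 0.274% to 45.4% across the LPS lists.

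The gained regions held by all 4 LPS libraries were led by one on chromosome 1 at 62781851 to 62783270. It ranked 48, 184, 30 and 46 in LPS A, B, C and D and was in no unstimulated list. It touched 5 of the 8 H4ac lists, all from LPS cells, and neither unstimulated H4ac list. The second, on chromosome 1 at 182242911 to 182243320, ranked 72, 24, 55 and 83 and likewise touched H4ac lists of LPS cells only (4 of the 8), with 1 p65 and 1 ATF3 list. The third, on chromosome X at 7442871 to 7444510, ranked 21, 3, 17 and 139. It touched both H4ac lists of 60 min, no other H4ac list and 3 Pol II lists, and among the named gained regions it came closest to the top of any list.

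Other gained regions lay in chromatin that was already acetylated at rest. The fourth, on chromosome 4 at 133227361 to 133229240, ranked 60, 37, 35 and 126 and was in all 8 H4ac and all 7 Pol II lists. The regions on chromosome 11 at 104410971 to 104411770, on chromosome 15 at 101089811 to 101093200, on chromosome 19 at 5512061 to 5512900 and on chromosome 7 at 87548821 to 87549160 were also in all 8 H4ac lists. The region on chromosome 13 at 113137731 to 113139630 touched 5 H4ac lists, among them both unstimulated ones. The region on chromosome 7 at 88298491 to 88300070 touched 1 H3K27me3 list and no other list. In all, 6 of the 10 touched both unstimulated and both 60 min H4ac lists and 2 touched both 60 min lists and no unstimulated list.

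The 5 best-ranked lost regions were weaker and were each held by 2 unstimulated lists. The first, on chromosome 13 at 47678691 to 47680880, ranked 173 in unstimulated A and 16 in unstimulated D and touched 2 p65 and 2 ATF3 lists. The second, on chromosome 17 at 39982741 to 39982890, ranked 190 and 217 in unstimulated A and C and touched no list of another target. The remaining 3 lie on chromosome 13 at 46760831 to 46761090, on chromosome 16 at 35981561 to 35981800 and on chromosome 14 at 47503781 to 47503930. No H3K27me3 list touched any of the 5.

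Gained regions often lay in chromatin that carried H4 acetylation before LPS. A p50 region was counted as acetylated at a time when both H4ac libraries of that time had a region up to 10 kb touching it. Wider H4ac regions were left out, so a p50 region inside one at rest could count as acetylated at 60 min only. The shares were not computed with wider H4ac regions. By this rule 42.4% of gained regions were acetylated at 60 min (101 of 238, 95% Wilson interval 36.3 to 48.8, which covers counting error only) and 34.9% in unstimulated cells (83, 29.1 to 41.1). The shares were 48.6% and 47.3% for regions held in both conditions and 26.4% and 24.4% over all joined regions. Taken by region, 63 of the 238 gained regions touched all 4 H4ac lists of both conditions, 27 touched both 60 min lists and no unstimulated list, and 6 the reverse. Regions with acetylation at 60 min only thus made up 11.3% of gained regions (7.92 to 16.0), against 8.78% of those held in both conditions (5.21 to 14.5) and 6.09% of all joined regions.

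The shares at 120 and 240 min were 35.7% and 34.9% of gained regions, against 42.6% and 43.9% of those held in both conditions. The wider class touches other lists more readily. Among regions up to 1 kb, 37.6% of gained regions and 36.1% of those held in both conditions were acetylated at 60 min, and 32.3% and 47.5% in unstimulated cells. The 53 gained regions that LPS D also held were acetylated at 60 min in 43.4% of cases (31.0 to 56.7) and the 185 others in 42.2% (35.3 to 49.4), so this share was close with and without support from LPS D.

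Pol II gave a like picture. Regions up to 100 kb of both 60 min Pol II libraries touched 29.4% of gained regions (70 of 238), 31.1% of those held in both conditions and 18.8% of all joined regions. The single unstimulated Pol II library touched 23.1%, 23.6% and 17.2%. Among gained regions 28 (11.8%) touched both Pol II lists of 60 min and not the unstimulated one, 11 (4.62%) the reverse, and 132 (55.5%) touched none of the 3. The shares were 12.8%, 4.05% and 58.1% for regions held in both conditions and 8.03%, 3.83% and 68.7% over all joined regions.

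A minority of p50 regions touched a p65 region. Any of the 5 p65 lists touched 13.0% of gained regions (31 of 238), 16.2% of those held in both conditions and 19.5% of all joined regions (483). The p65 library labelled X of 60 min touched 6.72% of gained regions (16 of 238, 4.18 to 10.6), 6.76% of those held in both conditions and 3.67% of all joined regions. The unstimulated p65 library X touched 0.420% of gained regions (1 of 238), 2.70% of those held in both conditions and 1.21% of all. The other p65 library of 60 min, letter A, touched 0.840% of gained regions (2), 1.35% of those held in both conditions and 8.03% of all, which is the opposite order. The p65 library of letter C, taken at 120 min, touched 6.30%, 11.5% and 11.4%. This was the most of any p65 list for regions held in both conditions and for all joined regions, but not for gained regions. ATF3 libraries differed among themselves in the same way. ATF3 A, taken at 240 min, touched 16.0% of gained regions, 23.0% of those held in both conditions and 12.0% of all, while ATF3 C of the same time touched 1.26%, 2.03% and 9.73%.

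H3K27me3 lists touched 11.3% of gained regions, 17.6% of those held in both conditions and 27.3% of the 44 held by all 7 lists (12 regions, 16.3 to 41.9), against 11.2% over all joined regions. These shares count any of the 5 H3K27me3 lists, and the regions of all 7 lists are also the widest. Lists of all 5 other targets touched 5 gained regions and 12 joined regions in all, and no list of another target touched 29 gained regions (12.2%), against 517 of all joined regions (20.9%).

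Most lost regions touched no H4ac list of unstimulated or 60 min cells, as did most joined regions. Of the 16, 11 touched none of these 4 lists (68.8%), against 52.2% of all joined regions. A p65 list touched 11 of the 16 (68.8%, 44.4 to 85.8) and an ATF3 list 9 (56.2%, 33.2 to 76.9). The shares of p65 and ATF3 over all joined regions were 19.5% and 24.3%. Among regions held by 1 unstimulated list only they were 39.2% and 42.0%, so raised shares were not particular to lost regions. ATF3 C alone touched 7 of the 16. In so small a class each share has a wide interval, and 3 of the lost regions lay below 3.2 Mb on their chromosome, a stretch described below.

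Per library, a larger share of LPS regions than of unstimulated regions lay in chromatin acetylated at 60 min only. The share of a list's own joined regions that touched both 60 min H4ac lists and no unstimulated one was 8.38%, 7.50%, 8.43% and 4.22% in LPS A, B, C and D, against 4.05%, 3.27% and 2.12% in unstimulated A, C and D. Every LPS list stood above every unstimulated list, LPS D by a small margin. The means were 7.13 ± 1.99% (SD, n = 4) and 3.15 ± 0.975% (SD, n = 3). The two-sided exact permutation p of 0.0571 is the smallest this test allows here and lies above the threshold of 0.05. Over the 22 quantities compared per list the adjusted p was 0.458. Within the date of letters A and C the means were 8.40% and 3.66%, within letter D the LPS list was higher by 2.11 percentage points, and without LPS D the means were 8.10% and 3.15%.

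Lists of a single state gave smaller ratios, though larger differences in percentage points. Both 60 min H4ac lists touched 35.6%, 32.9%, 36.6% and 18.2% of the regions of LPS A, B, C and D, against 27.0%, 22.9% and 13.0% of unstimulated A, C and D (two-sided exact permutation p = 0.171; ratio of means 1.47, difference 9.88 points). Both unstimulated H4ac lists touched 31.8%, 30.5%, 33.3% and 18.8%, against 28.6%, 23.6% and 13.6% (exact permutation p = 0.343; ratio 1.30, difference 6.65 points). Both Pol II lists of 60 min touched 26.6%, 22.9%, 26.2% and 10.4%, against 18.1%, 16.3% and 9.67% (exact permutation p = 0.229; ratio 1.47, difference 6.83 points). Without LPS D the means were 35.1% and 20.96% for H4ac of 60 min, 31.9% and 22.0% for unstimulated H4ac and 25.3% and 14.7% for Pol II (exact permutation p = 0.1 each, the smallest possible). In each of these the LPS library was above the unstimulated library of its letter in 3 of 3 letters, and LPS D was below unstimulated A and C. With every list cut to 317 regions the share with acetylation at 60 min only averaged 8.70% with LPS and 3.44% in unstimulated cells (exact permutation p = 0.0571). With p50 regions of every width, and H4ac regions still up to 10 kb, it averaged 6.75% and 2.88%. With the upper 50% of each list by score it averaged 8.46% and 4.28%. In both of these settings p was above its smallest value (exact permutation p = 0.114 each).

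The regions that only 1 library held showed the split between libraries most plainly. By definition all other p50 lists lack them, so this class depends on the lengths of those lists. Its shares are not those of whole lists, which are given above. Such regions numbered 390, 277, 354 and 98 in LPS A, B, C and D, and 74, 117 and 171 in unstimulated A, C and D. They made up 33.3%, 28.4%, 32.4% and 32.1% of the LPS lists and 20.2%, 29.8% and 51.7% of the unstimulated lists. Both 60 min H4ac lists touched 25.9%, 19.5%, 28.8% and 2.04% of them in LPS A, B, C and D, against 1.35%, 1.71% and 1.17% in unstimulated A, C and D. The groups did not overlap (two-sided exact permutation p = 0.0571, adjusted 0.458), but LPS D stood beside the unstimulated lists. Without LPS D the means were 24.5% and 1.29%, within the date of letters A and C they were 27.4% and 1.53%, and within letter D the difference was 0.871 percentage points. With lists of equal length they were 29.8% and 6.95% (exact permutation p = 0.171), with regions of every width 15.2% and 2.06% (p = 0.229), and with the upper 50% by score 26.2% and 5.23% (p = 0.171).

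The same split ran through every H4ac and Pol II list. Single H4ac lists, of any time, touched 21.3% to 42.9% of the regions held only by LPS A, B or C, and at most 5.41% of those held only by LPS D or an unstimulated list. Pol II lists touched 7.22% to 30.8% and at most 5.41%. ATF3 C ran the other way, with 4.52% to 9.49% for LPS A, B and C and 21.4% to 35.9% for LPS D and the unstimulated lists, as did ATF3 B with 1.44% to 3.08% and 17.1% to 25.7%. The p65 libraries of letters A and C touched 2.17% to 10.3% and 19.7% to 35.1%. ATF3 A, at 7.34% to 12.8% and 1.35% to 4.27%, and p65 X, at no more than 4.05% in any list, did not share this pattern. Regions held by a single unstimulated library, and by LPS D, were thus mostly outside acetylated chromatin and often shared with particular ATF3 and p65 libraries.

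**Figure D5:**
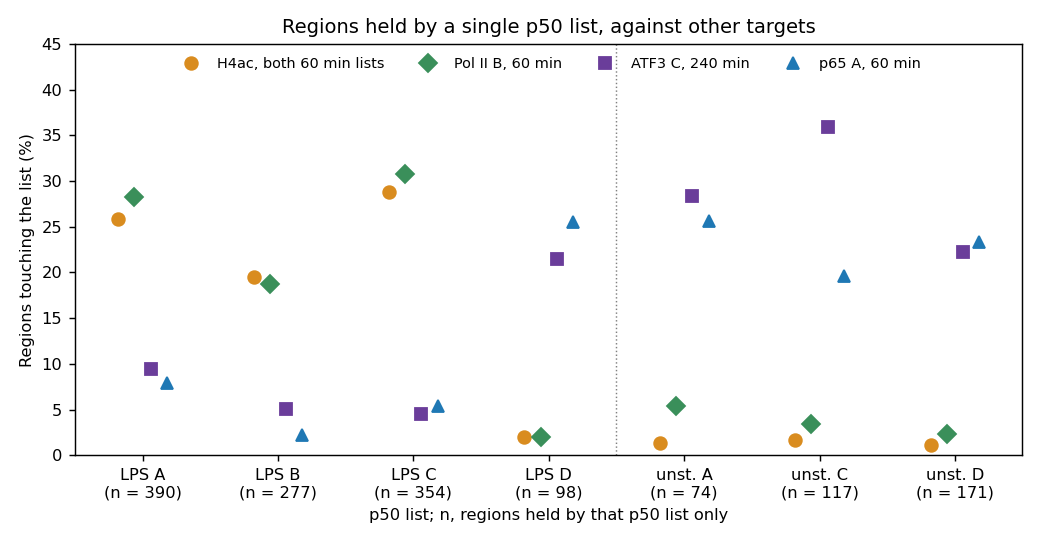
Share (%, y axis) of the regions held by 1 p50 list only that touched both H4ac lists of 60 min, Pol II B of 60 min, ATF3 C of 240 min or p65 A of 60 min, for each p50 list (x axis, LPS left of unstimulated, n regions each). H4ac lay at 19.5% to 28.8% in LPS A, B and C and at most 2.04% in the other 4 lists, where ATF3 C and p65 A lay at 19.7% to 35.9%.

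Regions at chromosome starts formed a larger share of the shorter lists, though not a larger number throughout. On most mouse chromosomes the assembled sequence begins near 3.0 Mb, beside the centromere, and regions that start below 3.2 Mb or lie on chromosome Y were counted together. They made up 1.86%, 3.47%, 2.03% and 9.78% of the regions of LPS A, B, C and D, against 10.7%, 8.24% and 7.60% of unstimulated A, C and D (two-sided exact permutation p = 0.171). By share LPS D lay within the unstimulated range, and without it the means were 2.45% and 8.85% (exact permutation p = 0.1). With every list cut to 317 regions the means were 2.76% and 9.04% (exact permutation p = 0.171). In number, 11, 36, 16 and 25 regions lay at chromosome starts in LPS A, B, C and D, against 34, 33 and 14 in unstimulated A, C and D. On chromosome Y the numbers were 13, 2, 9 and 6, against 9, 3 and 12. Within the date of letters A and C the mean shares were 1.95% and 9.47%. Chromosome 11 between 3002161 and 3100060 alone had 42 joined regions, of which p65 lists touched 36 and ATF3 lists 34. Only 1 of the 238 gained regions and none of the 44 regions of all 7 lists lay at a chromosome start or on chromosome Y. Leaving out these regions gave 237 gained and 13 lost regions of 2375 joined regions.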

How the data were processed

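ChIP-seq was measured in 35 libraries, of which the 7 p50 libraries were compared. The authors deposited 1 BED list of regions per library, with chromosome, start, end, a scale label and a score of no stated unit. Build mm9 comes from the submitters' processing notes; the sources used here state no aligner, caller, threshold or library depth. Lists were grouped by title. Regions up to 10 kb (Pol II and H3K27me3, up to 100 kb) were joined and compared by overlap of at least 1 bp, with exact permutation tests over the 35 assignments of 7 lists, Fisher's exact test per region with Benjamini-Hochberg adjustment at 0.05, and 95% Wilson intervals, in Python 3.11.15 with pandas 2.3.3, numpy 2.4.6 and scipy 1.17.1. Overlap and calling code was tested on simulated data. Chromosome starts end at 3.2 Mb here.

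Named regions were the 10 of all 7 lists, the 10 gained in all 4 LPS lists and the 5 lost with the best mean relative rank. Classes, sets and alternatives were chosen with earlier results of these data known. No mm9 genome or annotation was used here, so regions carry no gene names, gene lists and cell type markers were not looked up, and distances to transcription starts and κB matches were not computed. Alternatives changed the width limit, the scored part of each list, the overlap, the number of lists required and the libraries included.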

Additional observations from a re-analysis of the deposited data

Results flagged for a closer look

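Among the 22 quantities compared per list, 2 had an LPS library that a gap rule set apart from the other 3. By chance alone the rule flags about 1 group in 20, but this rate does not hold for tied values. The median width of regions was 160 bp in LPS A, against 150 bp in each of LPS B, C and D. With 3 tied values the rule is met at any difference, so this flag says little. The share of regions touching both H4ac libraries of 240 min was 15.9% in LPS D, against 31.1%, 29.4% and 30.9% in LPS A, B and C, and 23.0%, 21.4% and 10.9% in unstimulated A, C and D.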

How the results depend on the processing

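The ratio of region numbers stayed above 1 in every alternative run and never passed the test (exact permutation p 0.1 to 0.5). In every run 0 regions passed the per-region test, but with so few lists this says little about the regions. Gained regions numbered 97 with regions of every width, 152 with the upper 50% of each list by score, 68 with lists of equal length, 129 where a list had to cover at least 50% of the joined region, 42 where every list of the group was required, 368 with letters A and C only and 563 without both letter D lists; lost regions numbered 5 with the upper 50% by score, 29 with equal lengths, 0 with every list required and 10 without letter D. The letter A and C, letter D and chromosome start alternatives, and the shares by list, were chosen after seeing the data. Leaving out 1 list gave 241 to 560 gained and 2 to 25 lost regions, among 2095 to 2413 joined regions. The difference in median width turned to -3.33 bp in the upper 50% by score and -0.833 bp with equal lengths. With letters as a replicate block (A, C and D), 389 of 2208 joined regions were gained and 27 lost. Same-letter lists deviated together with correlations of 0.0621, 0.0185 and 0.226. For letters A and C these lay near values across letters, 0.0282 for LPS A with unstimulated C and 0.0356 for LPS C with unstimulated A. For letter D the value stood apart, against -0.139 and -0.115 for LPS D with unstimulated A and C. With 3 letters the smallest sign-flip p is 0.25, so the block could bring no other result past the threshold. Tests of transcription start distance and κB matches were not run. Depth is unknown, so absence from a list is not absence of binding. The two-sided permutation test doubles the smaller tail, so with 4 lists against 3 it cannot give a p below 0.0571.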

Other observations

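The labels describe female mice, yet every p50 list held regions on chromosome Y, with 13, 2, 9 and 6 in LPS A, B, C and D, against 9, 3 and 12 in unstimulated A, C and D. The ATF3 lists had 13, 7 and 8, the p65 lists A and C 9 and 10, and the p65 lists X of 60, 120 and 0 min 3, 4 and 0. No H4ac list had more than 4 and no Pol II list more than 2. The lists differ in length. Chromosome Y made up 0.179% to 3.39% of the p50 lists and 0.307% to 0.557% of the ATF3 lists. It made up 0.394% and 0.474% of p65 A and C, and 0.384%, 0.491% and 0% of p65 X. None of the 31 joined regions on chromosome Y was gained, lost or held in both conditions.

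The share of gained regions was 9.60% over all chromosomes. Gained regions were 14.8% of the 61 joined regions on chromosome 18, 14.4% of the 111 joined regions on chromosome 10 and 13.1% of the 61 on chromosome 19 and of the 176 on chromosome 2, against none of the 31 on chromosome Y, 3.01% of the 133 on chromosome 13, 3.03% of the 132 on chromosome 8 and 4.42% of the 113 on chromosome 6. These chromosomes were picked after their values were seen, and the shares carry no test.

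Of the gained regions 7 of 238 (2.94%) had another region of at least 2 lists within 10 kb, against 6.08% of those held in both conditions and 7.06% of all joined regions. Their median distance to the nearest such region was 326 kb, against 371 kb for regions held in both conditions, 486 kb for all joined regions and 508 kb for the 16 lost ones, of which 4 had a neighbour within 10 kb.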
